A study of Mus musculus with 6 samples.

Results

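The 45 genes described here encode the parts of the Wnt signalling pathway that act at and near the cell surface: 17 Wnt ligands, 12 receptors (the Frizzled family with the co-receptors Lrp5 and Lrp6), 8 secreted inhibitors of the Dkk, Sfrp and Wif families, the 4 R-spondins and 4 intracellular components and read-outs (Ctnnb1, Lef1, Tcf7 and Axin2). They were chosen by name, as every probe for a gene whose accession on the array mapped to a listed symbol, which gave 54 of the 39429 gene probes. Of the 45 genes, 36 had 1 probe and 9 had 2, and 53 probes, at least 1 for every gene, were bright enough to be tested. The study hybridised RNA of whole mouse embryos, 12 days old, to Agilent arrays with a single dye, with 2 wild-type, 2 heterozygous and 2 homozygous embryos for the allele STAT3-K177K180R, which alters STAT3 at 2 residues. The series title ties the study to a defect in STAT3 secretion and to abnormal development. No agent was given to any group, and neither the strain nor the way the allele was made is stated in the labels. The labels place embryos of all 3 genotypes in one womb without naming litters or parents, speak of 2 independent experiments per group, add the word mutant even to the wild-type genotype, and name tumor tissue in the extraction step; titles decided the genotype here. Nothing says that the embryos of a genotype came from separate litters, so each p-value measures only the spread between these samples.

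Wnt proteins are secreted, lipid-modified signals that bind a Frizzled receptor together with Lrp5 or Lrp6. In the canonical branch this stabilises beta-catenin, encoded by Ctnnb1, which enters the nucleus and works with the transcription factors Tcf7 and Lef1 on targets such as Axin2, while Wnt5a and Wnt11 are best known for branches that act without beta-catenin, on cell polarity and movement. Dkk proteins block Lrp5 and Lrp6, Sfrp proteins and Wif1 bind the ligands themselves, and R-spondins raise the number of receptors at the surface. In the embryo the pathway patterns the dorsal neural tube and midbrain, drives outgrowth of limb, face and tail, and shapes kidney, lung and gonad.

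The share of gene spots well above background was 76 to 78.3% on the wild-type and heterozygous arrays and 74.6% and 72% on the homozygous arrays, no spot was saturated, and the negative control spots were brighter on the homozygous arrays (median 43.5 and 48) than on the other 4 (26 to 27). Both homozygous arrays lay on slide 2 and the other 4 on slide 1, so in every comparison with homozygous embryos the slide and the genotype cannot be told apart. The allele is named for changed residues, so the Stat3 level is no check of the labels: the brighter Stat3 probe read 0.82 and 0.82 in wild-type, 1.07 and 0.82 in heterozygous and 1.39 and 1.10 in homozygous embryos (difference from wild type 0.43 ± 0.16 (SE), limma, adjusted p = 0.0917). All levels here are log2 of the processed signal minus the array's 75th percentile, so that 0 is the 75th percentile of gene spots, and a difference of 1 is a doubling. Levels of different probes are not comparable, since probes differ in how strongly they bind.

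Between homozygous and wild-type embryos, Wnt1 and Wnt5a rose most among the members. Lrp5, Sfrp5 and 1 of 2 probes each of Wnt16 and Fzd5 were called higher by smaller amounts. Dkk3, Rspo3, Rspo4 and 1 of 2 probes of Axin2 were called lower. A probe is called where limma's adjusted p over all 29823 tested probes is below 0.05. That makes 6 member probes higher and 4 lower of 53 (18.9%), while 27.9% of all tested probes were called, 13.3% higher and 14.6% lower, so the members as a list were not called more often than the array as a whole. The median difference was -0.10 for the members and 0.08 for all tested probes, and the members ranged from -0.95 to 1.85. In 39 member probes (73.6%) the homozygous pair lay wholly above or wholly below the wild-type pair, 16 above and 23 below, against 68.9% of all tested probes (38.5% above and 30.3% below).

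**Figure D1:**
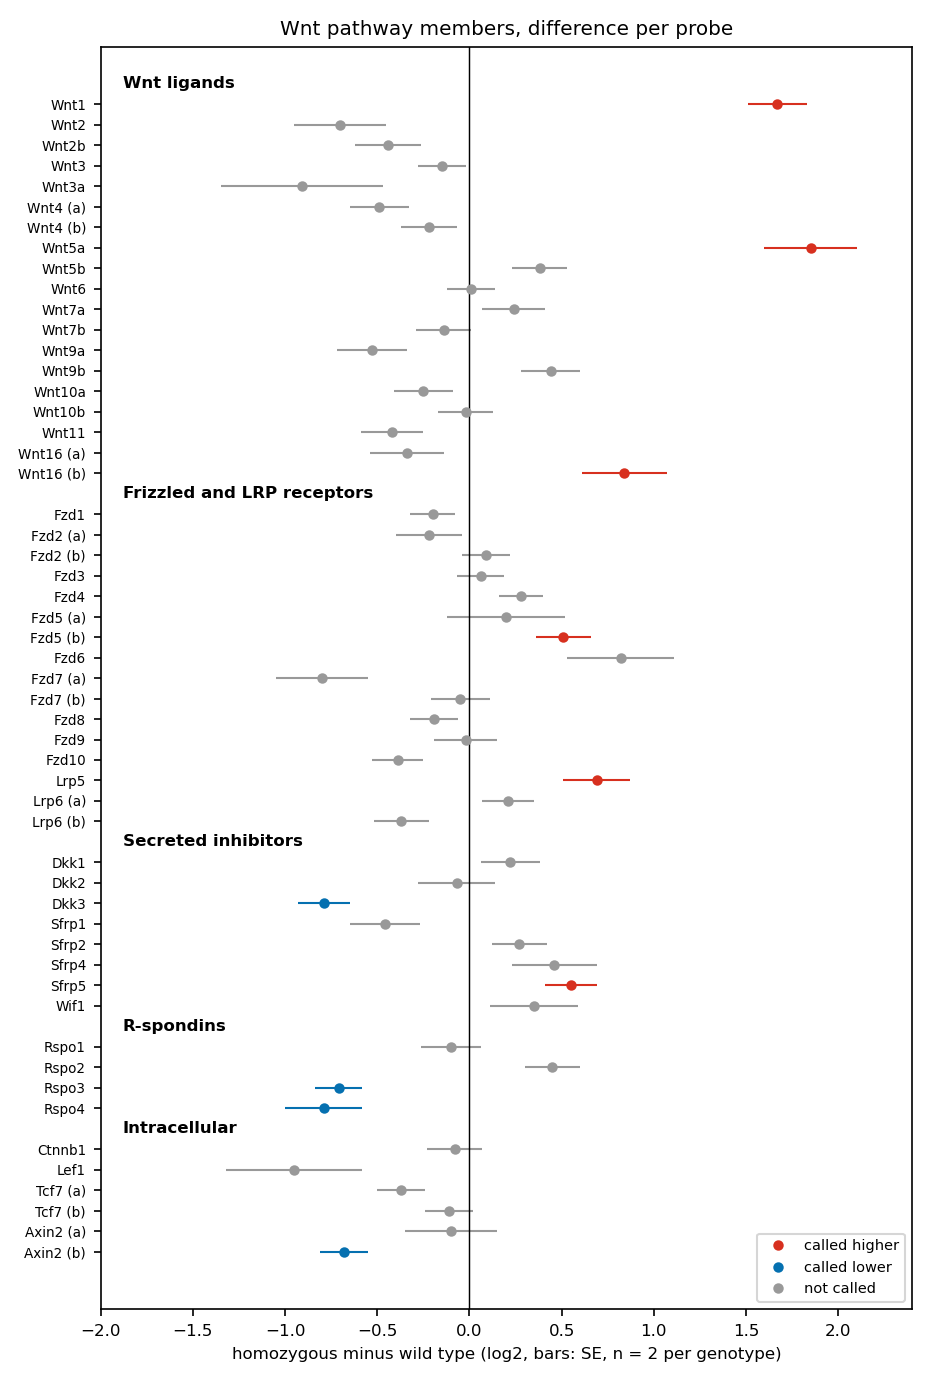
Difference between homozygous and wild-type embryos (log2, x axis) for each of the 53 tested member probes (y axis, grouped by role); points are fitted differences, bars are 1 SE, n = 2 embryos per genotype, and a and b mark 2 probes of a gene in order of probe name. Wnt1 (1.67) and Wnt5a (1.85) stand to the right of all other members, and the points called lower lie between -0.79 and -0.68.

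Among the ligands, 3 of 19 tested probes were called higher and none lower (15.8%, beside 27.9% of all tested probes), with a median difference of -0.15. Of the 19 differences, 12 lay below 0 and 7 above. The homozygous pair lay wholly below the wild-type pair in 9 probes and wholly above it in 6. Wnt1, the signal of the dorsal neural tube midline and of the boundary between midbrain and hindbrain, read -2.44 and -2.35 in wild-type, -2.10 and -2.33 in heterozygous and -0.85 and -0.59 in homozygous embryos. Both homozygous embryos lay well above the other 4, whose values spanned a narrow band. The difference from wild type was 1.67 ± 0.16, a 3.19-fold higher level (limma, adjusted p = 0.0016), and it was called in each of 15 alternative settings, between 1.44 and 1.80. Leaving out either heterozygous replicate gave the same fit here as using only the 2 genotypes compared, so these settings are not separate checks. A second Wnt1 probe was not well above background on any array and was not tested. The 250 bases before the Wnt1 start are shown because this is the called ligand with the smallest adjusted p, and the data bear on its transcript level; they are RefSeq sequence, build GRCm38.p6, chr15:98789607-98789856, + strand, with nothing in capitals because no searched motif lies in them.
Wnt1: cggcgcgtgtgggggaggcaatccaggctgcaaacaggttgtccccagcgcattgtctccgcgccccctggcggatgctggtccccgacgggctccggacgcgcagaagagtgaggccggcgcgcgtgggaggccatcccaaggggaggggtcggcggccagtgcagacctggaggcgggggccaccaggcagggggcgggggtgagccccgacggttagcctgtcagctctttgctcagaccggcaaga

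Wnt5a, the ligand of limb, face and body-axis outgrowth, read 0.23 and -0.12 in wild-type, 0.34 and 0.26 in heterozygous and 1.56 and 2.25 in homozygous embryos. Again both homozygous embryos were above all others, although they differed from each other by more than the 4 other embryos did. The difference from wild type was 1.85 ± 0.25, or 3.61-fold (limma, adjusted p = 0.00437), and it was called in each of the 15 alternative settings, at 1.51 without homozygous replicate 2 and 2.20 without homozygous replicate 1.

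A whole embryo mixes many tissues, so more cells of a type and more RNA per cell cannot be told apart in these values. Of the 5 roof plate marker probes (Lmx1a, Gdf7, Msx2, Ttr), which mark the dorsal midline where Wnt1 is made, 1 was called higher (Msx2, 0.82 ± 0.19) and 1 lower (a dim Gdf7 probe, at least 1.86-fold lower and not well above background on either homozygous array, limma, adjusted p = 0.0033), while the other Gdf7 probe, well above background on all arrays, differed by 0.04 (limma, adjusted p = 0.89). Lmx1a (-0.40) and Ttr (-0.26) were not called, and in both the homozygous pair lay below the wild-type pair. The median difference of the roof plate list was -0.26. A summed linear level is dominated by the brightest probes of a list. That of the roof plate list was 5.38 to 5.98 in wild-type, 5.56 to 6.84 in heterozygous and 4.74 to 5.40 in homozygous embryos and came mostly from Ttr, which liver also makes. The neural progenitor list had 5 of its 6 probes tested and none called, with a summed level of 17.9 to 19.1 in wild-type, 18 to 19.5 in heterozygous and 22.3 to 25.5 in homozygous embryos. For limb mesenchyme, a site of Wnt5a, 2 of 6 marker probes were called lower and none higher. These were Twist1 (-1.23) and 1 of 2 Prrx1 probes (-1.71), the other Prrx1 probe differing by -0.06. The summed level was 12.3 to 13.3 in wild-type, 11.1 in both heterozygous and 7.15 to 7.83 in homozygous embryos. That fall in the sum lay in the 2 called probes: the other 4 differed by -0.29 to 0.26, with Tbx5 (0.25) and Tbx4 (0.26) above 0. Liver markers were called higher in 3 of 6 probes, with a summed level of 125 to 136, 115 to 138 and 195 to 204 in the same order. Of the 10 trophoblast probes 6 were tested, 1 was called higher (Prl3d1, 0.77) and 4 lower. The lower ones were probes of Gcm1 (-2.29, -2.21 and -3.23) and Syna (-0.77, well above background on neither homozygous array). Prl3b1 differed by 0.52 and was not called. The summed level, 94 to 107 in wild-type, 73.1 to 107 in heterozygous and 11.3 to 25.9 in homozygous embryos, came from Gcm1. Tpbpa was not well above background on any array. In the neuron list 1 of 8 probes was called lower (Elavl3, -1.87) and none higher. The kidney and gonad list had 1 of 6 tested probes called higher (1 of 2 Six2 probes, 0.52) and none lower. Its summed level was 3.52 to 3.79 in wild-type, 3.42 to 3.75 in heterozygous and 4.89 to 5.05 in homozygous embryos. Lists for surface ectoderm, heart and endothelium each had 1 probe called lower and none higher, and those for lung and erythroid cells had none called. The part of any of these tissues in the differences of the Wnt genes was not tested.

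Wnt16, a ligand best known from bone and joints, had probes that went opposite ways. The called probe read -5.19 and -5.48 in wild-type, -4.90 and -5.55 in heterozygous and -4.44 and -4.55 in homozygous embryos, a difference of 0.84 ± 0.23 (limma, adjusted p = 0.0407). The other read -5.06 and -4.74, -5.04 and -5.11, and -5.46 and -5.01 in the same order, a difference of -0.34 ± 0.20 (limma, adjusted p = 0.234). On the first probe the homozygous pair was above the other 4 embryos, and on the second the homozygous and wild-type pairs overlapped. The call on the first was lost when 1 homozygous or 1 wild-type array was left out, with adjusted p from 0.0565 without homozygous replicate 2 to 0.213 without wild-type replicate 2 (limma), the values without homozygous replicate 1 and wild-type replicate 1 being 0.0711 and 0.107. It was also lost with normexp and quantile normalization, at 0.32 (limma, adjusted p = 0.0562).

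The 14 other ligand genes were not called, at differences between -0.91 and 0.44. Wnt5b, the close relative of Wnt5a, read 1.02 and 0.85 in homozygous against 0.52 and 0.60 in wild-type embryos, a difference of 0.38 ± 0.15 (limma, adjusted p = 0.109). Wnt3a, the ligand of the tail bud and dorsal neural tube, had the largest gap between homozygous embryos of any member, reading -5.43 and -6.83 against -5.24 and -5.19 in wild type. Its difference of -0.91 ± 0.44 was not called (limma, adjusted p = 0.167), but without homozygous replicate 1 it was called at -1.61 (limma, adjusted p = 0.00549). That value rests on a single homozygous array, for a probe well above background on 1 of the 2, and over both arrays the difference was 0.11 once normexp replaced the processed signal under the same scaling. Wnt2b was well above background on neither homozygous array, and its difference was -0.44 with the processed signal (limma, adjusted p = 0.107). The bound on that fall, at least 1.21-fold, holds for the processed signal only. The Wnt2b difference was 0.27 with normexp under the same scaling and -0.04 with normexp and quantile normalization, neither called. With the authors' own log2 values it was called lower, at -0.57 (limma, adjusted p = 0.0475). Against heterozygous embryos Wnt2b was called higher with normexp under the same scaling, at 0.46 (limma, adjusted p = 0.0178). The ligands of kidney and gonad differed from wild type by -0.49 and -0.22 (2 probes of Wnt4), 0.44 (Wnt9b) and -0.42 (Wnt11), and none of these was called.

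Some Wnt genes lie side by side in the genome with no protein-coding gene between them, and in these pairs the differences from wild type were as follows. Wnt1 differed by 1.67 and its neighbour on chromosome 15, Wnt10b, by -0.02, with Wnt10b at -4.05 and -4.16 in homozygous against -4.23 and -3.95 in wild-type embryos. On chromosome 1 Wnt6 differed by 0.01 and Wnt10a by -0.25, and on chromosome 11 Wnt3a differed by -0.91 next to Wnt9a at -0.53, and Wnt9b by 0.44 next to Wnt3 at -0.15. Of these 8 genes only Wnt1 was called.

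Among the receptors, 2 of 16 tested probes were called higher and none lower (12.5%, beside 27.9% of all tested probes), with a median difference of 0.02. Lrp5, a co-receptor of the canonical branch, read -0.68 and -0.98 in wild-type, -0.53 and -0.83 in heterozygous and -0.01 and -0.26 in homozygous embryos. Its homozygous pair lay above the other 4 embryos, with a gap to the nearest of them that was smaller than the gap within the wild-type pair, and the difference from wild type was 0.69 ± 0.18, or 1.62-fold (limma, adjusted p = 0.0353). Without any 1 array apart from homozygous replicate 2 the call was lost, at adjusted p of 0.0503 (either heterozygous replicate), 0.07 (homozygous replicate 1), 0.0888 (wild-type replicate 1) and 0.213 (wild-type replicate 2; limma). The other co-receptor, Lrp6, had probes at 0.21 ± 0.14 and -0.37 ± 0.15, neither called. The second was called lower with normexp background correction followed by the 75th percentile (-0.40, limma, adjusted p = 0.0448) or quantile normalization (-0.44, limma, adjusted p = 0.0271). Without homozygous replicate 1 it was at -0.51, from a single homozygous array.

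Fzd5, a Frizzled receptor needed in yolk sac and eye, was near the floor of the array. The called probe read -5.71 and -5.77 in wild-type, -5.54 and -5.56 in heterozygous and -5.37 and -5.08 in homozygous embryos, a difference of 0.51 ± 0.15 (limma, adjusted p = 0.0437). The other probe read -5.53 and -5.60, -5.46 and -5.57, and -4.84 and -5.89, so its homozygous embryos lay on either side of all the others (0.20 ± 0.32, limma, adjusted p = 0.664). The call on the first probe was lost in 9 of 14 alternative settings, among them normexp background correction with quantile normalization, at 0.13 (limma, adjusted p = 0.312), and leaving out homozygous replicate 2 (0.0913), either heterozygous replicate (0.0791), wild-type replicate 1 (0.178) or wild-type replicate 2 (0.222).

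The 10 other receptor genes were not called against wild type. Fzd6, a receptor of the planar polarity branch, read -1.96 and -2.16 in wild-type, -2.08 and -1.85 in heterozygous and -1.70 and -0.79 in homozygous embryos. Its difference of 0.82 ± 0.29 (limma, adjusted p = 0.0826) came mostly from homozygous replicate 2, and without homozygous replicate 1 it was 1.27. Fzd6 was called higher with normexp and the 75th percentile (0.75, limma, adjusted p = 0.0359) and not with normexp and quantile normalization (0.72, limma, adjusted p = 0.0786). Fzd7, a receptor of mesoderm and muscle, had 1 probe at -2.05 and -2.37 in wild-type, -1.76 and -2.26 in heterozygous and -2.75 and -3.27 in homozygous embryos (-0.80 ± 0.25, limma, adjusted p = 0.0578). It was called where only probes well above background on all arrays were tested (limma, adjusted p = 0.0466). Without homozygous replicate 1, Fzd7 differed by -1.06 on this probe, from a single homozygous array. Its second probe read -0.15 and -0.26, -0.27 and -0.14, and -0.43 and -0.09, a difference of -0.05 ± 0.16. The homozygous pair was the lowest on the first Fzd7 probe and on both sides of the other embryos on the second. Fzd1, Fzd2, Fzd3, Fzd4, Fzd8, Fzd9 and Fzd10 lay between -0.39 and 0.28, and of these Fzd10 (-0.39) was called lower under both normexp settings (limma, adjusted p = 0.0382 with the 75th percentile and 0.0319 with quantile normalization).

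**Figure D2:**
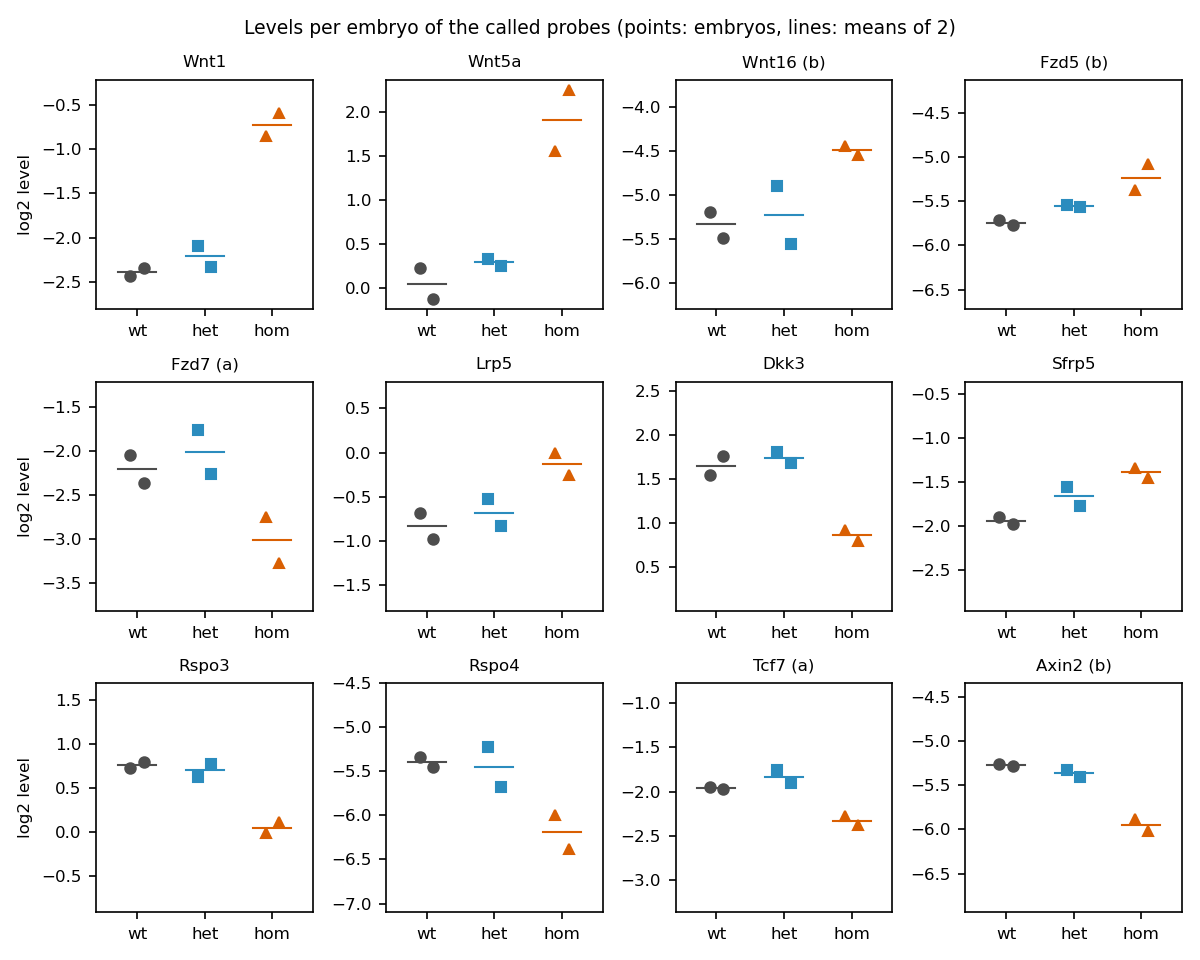
Level in each embryo (log2 signal minus the array's 75th percentile, y axis) by genotype (x axis: wt wild type, het heterozygous, hom homozygous) for the 12 member probes called in at least 1 comparison; points are embryos, lines are means of 2, and all panels span the same range of log2 units. The homozygous embryos of Wnt1 lie at -0.85 and -0.59 with all other embryos at -2.10 or lower, and those of Dkk3 at 0.92 and 0.80 with all others at 1.54 or higher.

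Of the 8 secreted inhibitors, 1 was called higher and 1 lower (25%, beside 27.9% of all tested probes), with a median difference of 0.24. Dkk3, a member of the Dickkopf family that differs from the others in not being a clear Lrp blocker, read 1.54 and 1.76 in wild-type, 1.81 and 1.68 in heterozygous and 0.92 and 0.80 in homozygous embryos. Both homozygous embryos lay below all 4 others, and the 2 other genotypes overlapped. The difference from wild type was -0.79 ± 0.14, or 1.73-fold lower (limma, adjusted p = 0.0112), and the call was lost only where a wild-type array was left out, with -0.90 (adjusted p = 0.0527) without wild-type replicate 1 and -0.68 (adjusted p = 0.103) without wild-type replicate 2 (limma).

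Sfrp5, a secreted Frizzled-related protein of foregut and liver primordium that binds Wnt ligands, read -1.90 and -1.98 in wild-type, -1.56 and -1.77 in heterozygous and -1.34 and -1.45 in homozygous embryos. The 3 pairs did not overlap, with the heterozygous embryos between the others. The difference between homozygous and wild type was 0.55 ± 0.14 (limma, adjusted p = 0.0304), and those of heterozygous from wild type (0.28) and of homozygous from heterozygous (0.27) were not called. Without homozygous replicate 1 the adjusted p was 0.0511, and without wild-type replicates 1 and 2 it was 0.14 and 0.189 (limma). The liver markers, given above, were also higher on the homozygous arrays, and their part in the Sfrp5 value was not tested.

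The 6 other inhibitors were not called: the Lrp blockers Dkk1 and Dkk2 differed by 0.22 and -0.07, the ligand-binding Sfrp1, Sfrp2 and Sfrp4 by -0.46, 0.27 and 0.46, and Wif1 by 0.35. In several of them the homozygous embryos disagreed. Sfrp4 read -2.29 and -1.60 and Wif1 -0.46 and 0.20, and without homozygous replicate 1 the differences were 0.80 and 0.69. Sfrp1 read -0.63 and -0.11, and without homozygous replicate 2 its difference was -0.71. Each of these values rests on a single homozygous array, with no spread between homozygous embryos.

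Of the 4 R-spondins, 2 were called lower and none higher (50% of only 4 probes, beside 27.9% of all tested probes), with a median difference of -0.41. Rspo3, which amplifies Wnt signals in vessels, placenta and limb, read 0.73 and 0.79 in wild-type, 0.63 and 0.77 in heterozygous and -0.01 and 0.11 in homozygous embryos. The 4 embryos with a wild-type allele lay close together, and both homozygous embryos lay below them. The difference from wild type was -0.71 ± 0.13, or 1.64-fold lower (limma, adjusted p = 0.0117), ranging from -0.77 to -0.65 over 15 alternative settings. Leaving out wild-type replicate 1 (limma, adjusted p = 0.0804) or 2 (limma, adjusted p = 0.104) ended the call.

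Rspo4, the R-spondin of nail development, read -5.34 and -5.45 in wild-type, -5.22 and -5.68 in heterozygous and -6.00 and -6.38 in homozygous embryos, where it was well above background on 1 of 2 arrays. The homozygous pair was the lowest, and the difference from wild type was -0.79 ± 0.21 (limma, adjusted p = 0.0344). Normexp here subtracted the local background from the median signal, modelled what background remained and added an offset of 50 to every spot. With it the difference was 0.15 under the 75th percentile (limma, adjusted p = 0.301) and -0.18 under quantile normalization (limma, adjusted p = 0.156). The call was also lost without homozygous replicate 2 (limma, adjusted p = 0.0782), wild-type replicate 1 (0.169) or wild-type replicate 2 (0.137). Rspo1 and Rspo2, the R-spondins of gonad and of limb and lung, differed by -0.10 ± 0.16 and 0.45 ± 0.15 and were not called (limma, adjusted p = 0.663 and 0.0704). Rspo2 read -1.06 and -0.74 in homozygous against -1.38 and -1.32 in wild-type embryos, so the pairs did not overlap. With normexp Rspo2 was called higher, at 0.47 under the 75th percentile (limma, adjusted p = 0.0276) and 0.44 under quantile normalization (limma, adjusted p = 0.042).

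Of the 6 probes for intracellular genes, 1 was called lower (16.7%, beside 27.9% of all tested probes). Ctnnb1, which encodes beta-catenin, read 4.55 and 4.45 in wild-type, 4.41 and 4.52 in heterozygous and 4.28 and 4.56 in homozygous embryos, a difference of -0.08 ± 0.15. Its pairs overlapped; beta-catenin is regulated mainly through the stability of the protein, which arrays do not measure. Axin2, a feedback inhibitor that canonical signalling switches on in many tissues, is commonly read as a report of pathway activity, and its 2 probes disagreed. The brighter read 0.41 and 0.53 in wild-type, 0.71 and 0.39 in heterozygous and 0.72 and 0.02 in homozygous embryos (-0.10 ± 0.25, limma, adjusted p = 0.784). The dimmer read -5.26 and -5.28, -5.33 and -5.40, and -5.88 and -6.02, and was called lower at -0.68 ± 0.13 (limma, adjusted p = 0.0124). On the brighter probe the homozygous embryos lay on either side of all others, and on the dimmer, well above background on 1 of 2 homozygous arrays, both were below. The dimmer probe's difference was 0.10 with normexp and the 75th percentile (limma, adjusted p = 0.523) and -0.22 with normexp and quantile normalization (limma, adjusted p = 0.0774), and leaving out wild-type replicate 1 (limma, adjusted p = 0.0973) or 2 (limma, adjusted p = 0.0983) ended its call.

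Lef1 and Tcf7 encode transcription factors that bind DNA with beta-catenin. Lef1 read -1.30 and -2.40 in wild-type, -2.10 and -2.61 in heterozygous and -2.90 and -2.69 in homozygous embryos, with the largest gap between wild-type embryos of any member. Its difference of -0.95 ± 0.37 was not called (limma, adjusted p = 0.0992). Without wild-type replicate 2 it was -1.50, resting on the single wild-type value of -1.30. Tcf7 read -1.95 and -1.97, -1.76 and -1.90, and -2.28 and -2.38 on its brighter probe (-0.37 ± 0.13, limma, adjusted p = 0.0739) and -4.84 and -5.04, -4.77 and -4.70, and -5.05 and -5.06 on the dimmer (-0.11 ± 0.13, limma, adjusted p = 0.552). Homozygous embryos were the lowest on both Tcf7 probes, on the dimmer by no more than the gap between the wild-type embryos.

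**Figure D3:**
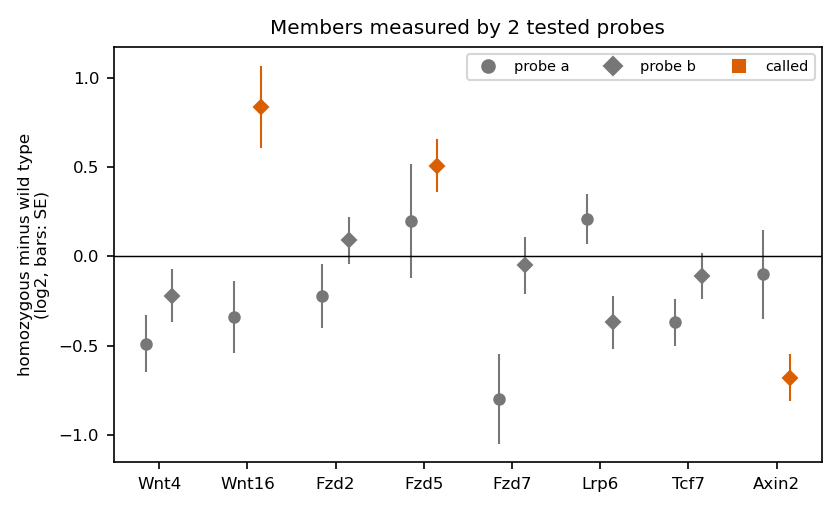
Difference between homozygous and wild-type embryos (log2, y axis) for the 8 member genes with 2 tested probes (x axis); circles and diamonds are the first and second probe in order of probe name, bars are 1 SE, and colour marks a call. In Wnt16, Fzd2 and Lrp6 the probes lie on opposite sides of 0, and in none of the 8 genes were both probes called.

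Dim probes need care in these comparisons. Of the 53 tested member probes, 5 were well above background on 1 or neither homozygous array (Wnt2, Wnt2b, Wnt3a, Rspo4 and the dimmer Axin2 probe). All 5 differences were below 0 with the processed signal, with a median of -0.70, and all 5 were above 0 with normexp and the 75th percentile, with a median of 0.11. With normexp and quantile normalization all 5 were again below 0, at -0.24 (Wnt2), -0.04 (Wnt2b), -0.22 (Wnt3a), -0.18 (Rspo4) and -0.22 (Axin2), and none was called. Over all 2537 tested probes of that kind, 77.4% were below 0, with a median of -0.42. The 48 other member probes had a median of -0.06 and of 0.04 with normexp and the 75th percentile, and 6 of them changed sign. Over all tested probes the median was 0.08 with the processed signal, 0.19 with normexp and the 75th percentile and 0.03 with normexp and quantile normalization, and higher calls made up 47.7%, 67.6% and 49.2% of all calls. Wnt1, Wnt5a, Dkk3, Rspo3, Lrp5 and Sfrp5 kept their direction and call under both normexp settings, at 1.48, 1.80, -0.69, -0.73, 0.61 and 0.49 with the 75th percentile.

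**Figure D4:**
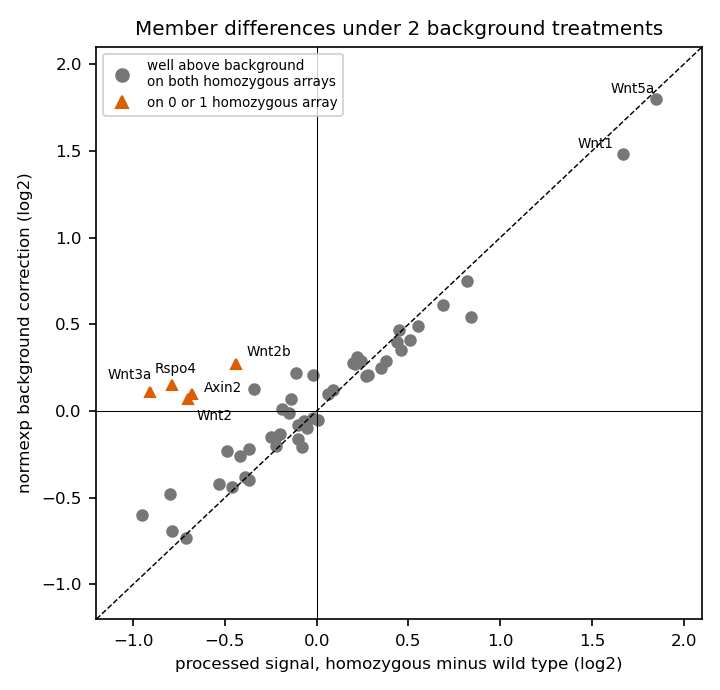
Difference between homozygous and wild-type embryos (log2) for the 53 tested member probes from the processed signal (x axis) and after normexp background correction with the same 75th percentile scaling (y axis); the dashed line is equality, and triangles are probes well above background on 0 or 1 homozygous array. The 5 triangles lie left of 0 and above 0, while Wnt1 and Wnt5a lie near the line.

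Promoter sequence was at hand in RefSeq (GRCm38.p6, 250 bases before to 50 after each start) for 31 of the 45 genes, as 39 promoters; Wnt5a, Wnt7b, Wnt10a, Fzd2, Fzd3, Fzd6, Fzd8, Lrp5, Lrp6, Dkk3, Sfrp1, Sfrp4, Rspo2 and Rspo3 were not among them. Both strands were searched for the letters that Tcf and Lef factors favour, ATCAAAG and AACAAAG, and for the palindrome that STAT factors favour, TTCNNNGAA; the searches do not overlap each other. ATCAAAG was in 5.13% of member promoters and 3.73% of all 32851 promoters, AACAAAG in 7.69% and 5.85%, either of them in 12.8% and 9.33%, and TTCNNNGAA in 2.56% and 8.3%. The 30 bases around each match upstream of a start are shown, with the match in capitals (as its reverse complement where it lies on the other strand), because these are the member promoters that hold such letters. Each is written 5′ to 3′ on the strand of its gene: Fzd7 chr1:59482006-59482035 (+), Wnt5b from 2 start sites, chr6:119467351-119467380 and chr6:119449439-119449468 (-), Wnt11 chr7:98835050-98835079 (+) and Dkk1 chr19:30549576-30549605 (-).
Fzd7 AACAAAG: tccacagagaaAACAAAGcgcgctattgga
Wnt5b TTCNNNGAA: acagcaggccTTCCTGGAAagtcctgtgag
Wnt5b ATCAAAG: agtaagtctctCTTTGATctgctccctgtc
Wnt11 ATCAAAG: gacgtgggcggATCAAAGcgacggtccgcg
Dkk1 AACAAAG: tcccatcccggCTTTGTTgtcttccctgag
A further AACAAAG lay in the Wnt3 promoter, after the start. The differences between homozygous and wild-type embryos for these genes were -0.80 and -0.05 (2 probes of Fzd7), 0.38 (Wnt5b), -0.42 (Wnt11), 0.22 (Dkk1) and -0.15 (Wnt3), and none was called. The called members with a promoter in the table (Wnt1, Wnt16, Fzd5, Sfrp5, Rspo4 and Axin2) held none of these letters in this window. The 250 bases before the Axin2 start are shown because it is the member known best as a Tcf target; they are chr11:108920099-108920348, + strand, all in lower case for want of a match.
Axin2: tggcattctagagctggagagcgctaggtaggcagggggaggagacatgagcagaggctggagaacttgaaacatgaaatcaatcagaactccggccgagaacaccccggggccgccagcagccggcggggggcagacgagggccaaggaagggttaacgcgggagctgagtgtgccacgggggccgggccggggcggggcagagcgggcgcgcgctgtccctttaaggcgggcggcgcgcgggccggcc

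No member was called between heterozygous and wild-type embryos, whose arrays share slide 1. Limma called 0 of 53 member probes and 0 of all 29823 tested probes (0%), and at an unadjusted p below 0.05 it found 0 member probes and 621 of all tested probes (2.08%). The member differences ranged from -0.51 (Lef1) to 0.33 (Wnt3a), with a median of 0.01. In 12 member probes (22.6%) the heterozygous pair did not overlap the wild-type pair, 8 of them higher and 4 lower, against 26.5% of all tested probes (14.5% higher and 12% lower). For members called in homozygous embryos, the differences between heterozygous and wild type were 0.18 ± 0.16 for Wnt1, 0.25 ± 0.25 for Wnt5a, 0.15 for Lrp5, 0.09 for Dkk3 and -0.06 for Rspo3.

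Homozygous and heterozygous embryos differed in 8 of 53 member probes (15.1%, against 22.9% of all tested probes): 2 were called higher and 6 lower, with a median difference of -0.05 for members and 0.07 for all tested probes. Over all tested probes 9.72% were called higher and 13.1% lower. The pairs did not overlap in 33 member probes (62.3%), 12 higher and 21 lower, against 63% of all tested probes (34.6% higher and 28.4% lower). This comparison shares its homozygous arrays with the one against wild type, so the values are given side by side and are not a second test. Wnt1 was 1.49 above heterozygous and 1.67 above wild-type embryos, and Wnt5a 1.61 and 1.85 (limma against heterozygous, adjusted p = 0.00242 and 0.00804). Dkk3 was at -0.88 and -0.79, Rspo3 at -0.66 and -0.71, Rspo4 at -0.74 and -0.79 and the dimmer Axin2 probe at -0.59 and -0.68 (limma against heterozygous, adjusted p = 0.00929, 0.0176, 0.0476 and 0.0228). Fzd7 (1 probe, -1.0) and Tcf7 (the brighter probe, -0.50) were called against heterozygous embryos and not against wild type (limma, adjusted p = 0.0353 and 0.0368). Lrp5 (0.55), Wnt16 (0.73), Fzd5 (0.32) and Sfrp5 (0.27) were called against wild type and not against heterozygous embryos. The difference between these comparisons is the heterozygous comparison above, in which no member was called.
Among the 8 calls, that of Wnt1 held without any 1 array. With a single heterozygous array the adjusted p of Wnt5a was 0.0543 (without replicate 1) and 0.0509 (without replicate 2), and Dkk3 was not called without heterozygous replicate 1 (limma, adjusted p = 0.0692). Without heterozygous replicate 1 or 2, Rspo3 was at adjusted p of 0.0718 and 0.0929, Rspo4 at 0.213 and 0.0569, the dimmer Axin2 probe at 0.122 and 0.0844, Fzd7 at 0.172 and 0.0573 and Tcf7 at 0.177 and 0.0941 (limma). Without either wild-type replicate, which enters only through the shared spread, Rspo3 was at 0.0571, Rspo4 at 0.0958, the dimmer Axin2 probe at 0.0702, Fzd7 at 0.0657 and Tcf7 at 0.0991. Without homozygous replicate 2, Fzd7, Tcf7 and Rspo4 were at 0.0734, 0.0657 and 0.105 (limma).

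The wider pathway was measured by 106 tested probes for 76 further genes, of which limma called 11 higher and 14 lower between homozygous and wild-type embryos (23.6%, beside the 27.9% of all tested probes), with a median difference of 0.04, and none between heterozygous and wild-type embryos. In the making and release of ligands, 2 of 5 tested probes rose: Notum, an extracellular enzyme that strips the lipid from Wnt proteins and so inactivates them, by 1.53 ± 0.16 (limma, adjusted p = 0.0021), and Porcn, the enzyme that adds that lipid, by 0.75 ± 0.16 (limma, adjusted p = 0.0201). Notum read -0.48 and -0.77 in wild-type, -0.24 and -0.48 in heterozygous and 0.92 and 0.88 in homozygous embryos, so the homozygous pair stood apart. Wls, the carrier that takes Wnt proteins to the surface, differed by -0.13 ± 0.17. The 2 probes of the ligand Wnt8b differed by -1.12 and -0.04, neither called, and the first was well above background on neither homozygous array. In the co-receptor list 2 of 11 probes were called lower and none higher. These were Kremen2, which works with Dkk proteins to remove Lrp6, at -0.76 ± 0.19, and Ror2, a receptor for Wnt5a, at -0.48 ± 0.13 (limma, adjusted p = 0.0313 and 0.039). Next by p were Znrf3 (-0.39) and Ryk (0.39), neither called. With normexp and the 75th percentile Ryk was called higher, at 0.41 (limma, adjusted p = 0.0284), and Znrf3 was at 0.03. Of the further inhibitors, 2 of 9 probes were called lower, Cer1 (-0.48, but 0.03 with normexp and the 75th percentile) and Dkkl1 (-0.53).

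Of 32 probes for cytoplasmic components, 2 were called higher and 3 lower. Dvl2, an adaptor that carries the signal from Frizzled receptors, rose by 1.28 ± 0.17 (limma, adjusted p = 0.00445). Its relative Dvl3 fell by 0.63 (limma, adjusted p = 0.0185) and Dvl1 differed by -0.21, not called; both are named for comparison after their values were seen. Fbxw11, part of the ligase that marks beta-catenin for destruction, was called higher on 1 of 2 probes (0.72 and 0.12). The feedback inhibitors Nkd1 and Nkd2, which bind Dvl proteins, were called lower on their brighter probe, at -0.80 ± 0.15 and -1.21 ± 0.16 (limma, adjusted p = 0.012 and 0.00426), while the second probes were at -0.32 and 0.17 and not called. Nkd2 read 1.69 and 1.60 in wild-type, 1.73 and 1.56 in heterozygous and 0.60 and 0.27 in homozygous embryos on the called probe, so the homozygous pair lay below all others.

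Of 19 probes for nuclear partners, 2 were called higher and 4 lower. Crebbp, a histone acetyltransferase that serves as co-activator to beta-catenin and to many other factors, had the lowest adjusted p of the list: it read 0.83 and 0.84 in wild-type, 0.81 and 0.64 in heterozygous and -1.04 and -1.09 in homozygous embryos, a difference of -1.90 ± 0.13 (limma, adjusted p = 0.000686). Tcf7l2, another Tcf factor, fell on 1 of 3 probes (-1.07 ± 0.17) and differed by -0.16 and 0.07 on the others. Tle1, a co-repressor, had 1 probe called higher (0.70) and 1 lower (-0.62), while its brightest probe differed by 0.11 and was not called. Ctbp1, also a co-repressor, was called higher (0.55). In the planar polarity list 2 of 11 probes were called higher and none lower, and both belong to Vangl2 (0.92 and 0.53), a membrane protein of that branch.

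Of 19 probes for genes reported as targets of the canonical branch in some tissue, 3 were called higher and 3 lower. That is 31.6%, beside 27.9% of all tested probes, and 9 differences lay above 0 and 10 below. The surface glycoprotein Cd44 rose on 1 of 3 tested probes (1.34 ± 0.13), Cdx1, a regulator of posterior identity, by 0.91 ± 0.23, and the cell cycle gene Ccnd1 by 0.46. Twist1, on the probe also counted above as a limb mesenchyme marker, fell by 1.23. Sp5, a direct target in many embryonic tissues, was called lower at -0.45 (limma, adjusted p = 0.045). T, the marker of tail bud and notochord, was called lower at -1.61 ± 0.17 and was at -0.27 with normexp and the 75th percentile (limma, adjusted p = 0.123). Ccnd1 and Sp5 lie outside the rule by which the other genes of this list are named and were picked after their values were seen.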

How the data were processed

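Signals are intensity values that, per the file headers, Agilent Feature Extraction (11.0.1.1 in the submitters' processing notes) had corrected for background and spatial trend inside each array and not scaled across arrays, beside 0 or 1 flags per spot. A second table, of log2 values, was deposited by the authors, with equal quartiles in all 6 arrays; the normalization tool is not given in the sources used here, and the table served as an alternative.

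Control spots and spots flagged as outliers were dropped, and log2 of the processed signal minus each array's 75th percentile was used. A probe was kept if it was measured on all 6 arrays and, in at least 1 genotype, lay well above background on both (29823 probes). Accessions were named through RefSeq's GRCm38.p6 gene table, which named 27234 of 39429 probes (69.1%); the array grid is annotated to mm9, so no array coordinates are given. All 6 arrays entered a single model of genotype in limma 3.58.1 (R 4.3.3), with Benjamini-Hochberg adjustment over all kept probes. The method was tested on simulated data with independent normal noise for each probe. Those data held no slide effect and no background, so the test does not bear on either. With 2 arrays per genotype an exact permutation test cannot go below p = 0.333 and was not used, and the number of arrays limits the precision.

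Deviations of same-numbered samples correlated at 0.29 between heterozygous and homozygous arrays and at -0.00 and -0.16 in the other pairs of genotypes; not all pairs deviate together and the labels tie the numbers to nothing shared, so no pairing was modelled. Alternatives changed background correction, scaling, filter, probe choice, samples and replicates. Values per embryo are given for member probes called in any comparison and for the other tested probe of their gene. They are also given for some uncalled members and some further genes, which this rule does not cover. From each further list, genes were named from the 4 with the smallest p, and some uncalled ones among these are not described. The members and lists were chosen with earlier results of these data known.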

Additional observations from a re-analysis of the deposited data

How the results depend on the processing

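Under normexp with the 75th percentile, Rspo4 and the dimmer Axin2 probe turned direction, to 0.15 and 0.10 against wild-type and to 0.31 and 0.27 against heterozygous embryos, the former of these called (limma, adjusted p = 0.0438 for Rspo4); with quantile normalization in its place neither turned. The median member difference moved to 0.10 against wild type and 0.16 against heterozygous, where 13921 probes were called, 76.3% of them higher (42.5% with the processed signal), and 14 members higher. With no filter on dim probes 2 members were called higher against wild type and 3 lower against heterozygous. A fit of only the 2 genotypes compared called 3546 probes between homozygous and heterozygous, with 1 member lower. The replicate block, which takes the replicate numbers as pairs, called 4 members higher against heterozygous, adding Lrp5 and Wnt16 (limma, adjusted p = 0.0355 and 0.0387); against wild type it called 8095 probes, with 5 members higher and 5 lower (1 Fzd7 probe added, limma, adjusted p = 0.0144), and 0 probes between heterozygous and wild type. The causes were not tested.

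Leaving out each array in turn gave, for homozygous against wild type, 2089 to 10786 probes called, 2 to 7 members higher, 1 to 8 lower and a median of -0.17 to -0.07. Without wild-type replicate 1 and 2 the counts were 2433 and 2089, with 2 members higher and 1 lower each time; Wnt1 and Wnt5a were the higher ones. Heterozygous against wild type gave 0 to 7 probes, 0 members and a median of -0.04 to 0.07; homozygous against heterozygous gave 1927 to 9591 probes, 1 to 7 members higher, 0 to 9 lower and a median of -0.11 to 0.02. Slide could not be fitted as a block, being fixed by genotype; the wild-type and heterozygous arrays share a slide, where 0 probes were called. Against wild type, calls were kept in 15 of 15 alternative settings for Wnt1 and Wnt5a, 13 for Dkk3 and Rspo3, 11 for Sfrp5, 9 for Wnt16 and 8 for Lrp5, in 8 of 14 for Rspo4, 5 of 14 for Fzd5 and 9 of 13 for Axin2. These tallies count 1 fit more than once. Leaving out either heterozygous replicate gave the same fit as that of only the 2 genotypes compared. Signal over background limits the probes near the array's floor (Wnt16, Fzd5, Rspo4 and the dimmer Axin2 probe).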

Other observations

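The spread between the embryos of a genotype was read for all members. The median gap between the 2 embryos was 0.11 in wild-type, 0.17 in heterozygous and 0.21 in homozygous embryos over the tested member probes, and 0.11, 0.17 and 0.25 over all tested probes. The largest member gaps were in Lef1 among wild-type embryos (1.10), Wnt16 among heterozygous embryos (0.64) and Wnt3a among homozygous embryos (1.40).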
